A study of Saccharomyces cerevisiae with 15 samples.

Results

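Sterol genes of Saccharomyces cerevisiae are described here across both arrays of the series: 35 genes of sterol synthesis, esterification, regulation and transport, out of 6250 genes measured. The genes were taken by name, and each of the 35 names was found on the arrays with 1 probe. Of the 15 samples in the series, which was made to compare methods of strand-specific RNA sequencing, the 13 sequencing libraries were not analysed here. Each of the 2 arrays received Cy3-labelled total RNA of strain BY4741 from YPD culture together with Cy5-labelled genomic DNA. Per the series' design, the RNA is a mid-log sample, and the labels give the DNA as BY4741 while tagging its strain as progenitor. Both arrays belong to the same group, so there is no treated or mutant group, and the comparisons are between genes.

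BY4741, a haploid strain used in many laboratories and of mating type a, carries mutant alleles of HIS3, LEU2, MET17 and URA3. It descends from S288C, whose HAP1 gene, which encodes a heme-dependent activator of several sterol genes, is interrupted by a transposon. YPD is a rich medium with glucose. Separate cultures are not stated for the arrays, which lay on 1 slide, so the p-values measure only the spread between these 2 hybridisations, and that spread may be technical.

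Ergosterol is the main sterol of yeast membranes, and its synthesis begins with acetyl-CoA. The mevalonate route makes farnesyl diphosphate, which is also drawn on for ubiquinone, dolichol, heme A and prenylated proteins. Squalene is then made and closed to lanosterol, and a chain of reactions in the endoplasmic reticulum turns lanosterol into ergosterol, several of them using molecular oxygen and heme. Surplus sterol is stored as esters in lipid droplets, and oxysterol-binding homologues carry sterols and other lipids between membranes. The zinc cluster factors Upc2 and Ecm22 activate many of the synthesis genes when sterol is scarce.

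The level used here is log2(RNA/DNA) at a gene's probe, minus the median gene of the same array, so that 0 is the median gene and 1 is a ratio 2-fold higher. The signal comes from 1 probe per gene and is set against DNA at the same probe, so it is not summed over the length of a gene. For the median gene, RNA intensities were 1135 (array 1) and 1390 (array 2), and DNA intensities 4184 and 4558. RNA of all 35 sterol genes lay above the detection floors of 17.05 and 32.9. The lowest, HES1, was at 121 and 153. Together the 35 genes, 0.56% of those measured, held 0.713% of the summed RNA intensity on array 1 and 0.734% on array 2.

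Most genes of sterol synthesis stood above the median gene, whereas genes of esterification, regulation and transport were mixed, with KES1 and OSH7 called above and ARE2 and HES1 below. A gene was called when its level was at least 1 from the median gene at an adjusted p under 0.05 in limma, adjusted over all 6250 genes. Of the 35 sterol genes, 23 were called above, where 28.2% of all genes were, and 2 were called below, where 31.2% of all genes were. The other 10 were not called. The median level of the 35 was 1.61, at percentile 82.5 of all genes, and the members ran from HES1 at -3.14 to ERG11 at 3.44. The adjusted p was under 0.05 for 33 of the 35, and for 94.3% of all genes, so the calls rest mainly on the fold threshold. By adjusted p alone 31 of the 35 were above, where 47.1% of all genes were, and at a log2 threshold of 2 there were 12, where 12.4% of all genes were. Without genes at the RNA floor 21 were above, where 27.1% of the remaining genes were.

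The levels differed by step. From acetyl-CoA to farnesyl diphosphate, 6 of 9 genes were above and the other 3 not called, and the median was 1.68. All 15 genes from squalene onward were above, with a median of 2.25. The 7 oxysterol-binding homologues split into 2 above, 1 below and 4 not called, and their median was 0.58. That share above, 28.6%, is near the 28.2% of all genes, and by RNA alone 1 of the 7 was above. Neither the 2 acyltransferase genes nor the 2 regulator genes held a member above.

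The difference between the medians of the squalene-onward and mevalonate genes was 0.60 on array 1 and 0.54 on array 2, or 0.57 ± 0.04 (SD, n = 2). Against the oxysterol-binding homologues, the squalene-onward median was higher by 1.67 ± 0.07 (SD, n = 2) and the mevalonate median by 1.11 ± 0.03 (SD, n = 2). Each of these 3 differences had the same sign on both arrays. The SD covers the 2 hybridisations only, not the spread among genes, and the classes overlapped: mevalonate genes ran from 0.47 to 3.26, squalene-onward genes from 1.04 to 3.44 and the homologues from -3.14 to 1.98.

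**Figure D1:**
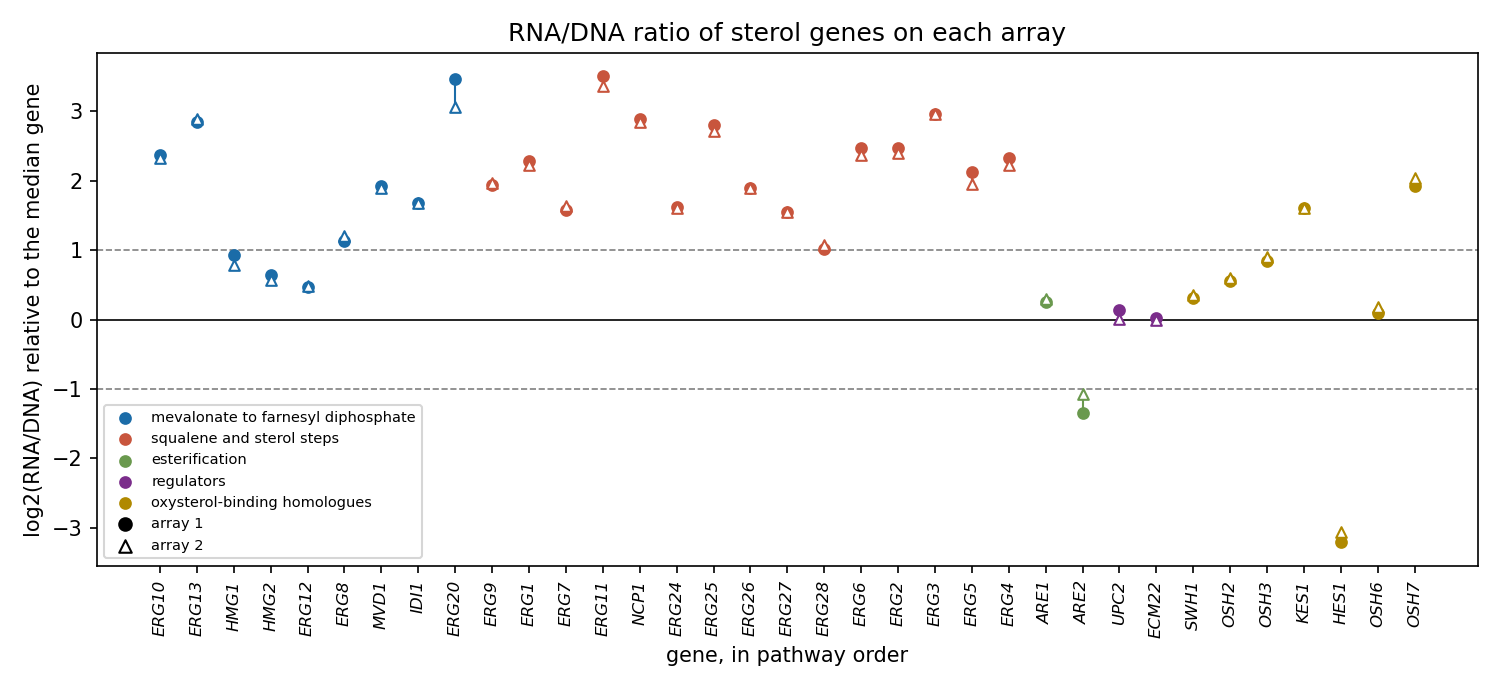
Level of each sterol gene on array 1 (filled circles) and array 2 (open triangles), as log2(RNA/DNA) relative to the median gene, in pathway order and coloured by step. Dashed lines mark 1 and -1. All 15 genes from squalene onward lie above 1 on both arrays, ERG20 shows the widest gap between arrays, and HES1 is lowest.

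The mevalonate genes were high at both ends of the route and low in its middle. ERG10, the acetoacetyl-CoA thiolase that begins it, had RNA intensities of 14658 on array 1 and 16794 on array 2 beside DNA intensities of 10079 and 10503. ERG13, the HMG-CoA synthase, had RNA intensities of 14417 and 17508 beside DNA intensities of 6357 and 6962. Both were called above, with levels of 2.35 ± 0.03 and 2.86 ± 0.04 (SD, n = 2).

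The reductase genes that follow were lower, less than 2-fold above the median gene. HMG1, which encodes an HMG-CoA reductase of the rate-limiting step, had RNA intensities of 2259 and 3000 and a level of 0.86 ± 0.10 (SD, n = 2). HMG2, the other reductase gene, had 2033 and 2553 and a level of 0.60 ± 0.05. Neither passed the fold threshold with RNA/DNA.

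The kinases and the decarboxylase came next, in rising order along the route. ERG12, mevalonate kinase, was the lowest mevalonate gene, with RNA intensities of 2210 and 2631 and a level of 0.47 ± 0.01 (SD, n = 2), and was not called. ERG8, phosphomevalonate kinase, was called above at 1.17 ± 0.05. MVD1, mevalonate diphosphate decarboxylase, was called above at 1.91 ± 0.02. ERG8 passed the threshold narrowly, and without genes at the RNA floor, which lowered all levels by 0.19 through the median gene, it was at 0.98 and not called.

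IDI1, which interconverts the isoprene building blocks, was called above at 1.68 ± 0.00 (SD, n = 2). ERG20, the farnesyl diphosphate synthase, had RNA intensities of 11069 and 12325 beside DNA intensities of 3686 and 4787, and a level of 3.26 ± 0.29. It was thus 9.57-fold above the median gene and the highest gene of the route by the ratio. By RNA alone ERG20, at 3.22, was below ERG13 at 3.66 and ERG10 at 3.64.

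ERG20 was also the least repeatable sterol gene. Its level was 3.46 on array 1 and 3.06 on array 2, a gap of 0.40, and 0.386% of all genes whose RNA exceeded both floors were at least as far apart. Its 7 spots ran from 2.98 to 3.71 on array 1 and from 2.99 to 3.16 on array 2. The gap was 0.11 when the gradient-corrected intensity was used. ERG20 was called above under each of the 8 alternatives that allow a test.

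From squalene to lanosterol all 3 genes were called above. ERG9, squalene synthase, which commits farnesyl diphosphate to sterols, had RNA intensities of 2778 and 3383 beside low DNA intensities of 2214 and 2655, and a level of 1.95 ± 0.02 (SD, n = 2). ERG1, the squalene epoxidase that allylamine drugs inhibit, had RNA intensities of 10078 and 11445 and a level of 2.25 ± 0.05. ERG7, lanosterol synthase, was the lowest of these at 1.61 ± 0.05.

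ERG11 was the highest of all sterol genes by the ratio. It encodes the cytochrome P450 that demethylates lanosterol and is the target of azole antifungals, and its RNA intensities were 23022 and 24285 beside DNA intensities of 6869 and 7365. Its level was 3.50 on array 1 and 3.37 on array 2, 10.8-fold above the median gene, with an adjusted p of 6.75e-05 in limma. Only ERG20 overlapped it among the other sterol genes across the arrays. NCP1, the reductase that passes electrons to ERG11 and to ERG1, had RNA intensities of 13676 and 15870 and a level of 2.87 ± 0.03 (SD, n = 2). ERG24, the sterol reductase that acts on the product of ERG11, was at 1.61 ± 0.02.

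The proteins that remove the C-4 methyl groups act as a complex, and their genes differed in level. ERG25, the methyl sterol oxidase, had RNA intensities of 20665 and 25534 beside DNA intensities of 10376 and 12096, and a level of 2.76 ± 0.06 (SD, n = 2). ERG26, a sterol dehydrogenase, was at 1.89 ± 0.00 and ERG27, a keto reductase, at 1.55 ± 0.00. ERG28, the membrane scaffold of the complex, was the lowest of all 15 genes from squalene onward, with RNA intensities of 2599 and 3472 and a level of 1.04 ± 0.04. By the ratio, the order ERG25, ERG26, ERG27, ERG28 was the same on both arrays, over a range of 1.71. By RNA alone ERG27, at 2.25, was above ERG26, at 1.68, on both arrays. The DNA signal of ERG26 was at percentile 26.5 and that of ERG27 at 79.2. ERG28 was under the threshold, at 0.85, without genes at the RNA floor.

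The last 5 enzymes, which turn zymosterol into ergosterol, were all called above, by the ratio within a range of 0.92. By RNA alone all 5 were again called above but were spread more widely, from ERG5 at 1.478 to ERG3 at 3.999. ERG5 had the lowest DNA signal of the 5 on both arrays. ERG3, a sterol desaturase, was the highest, with RNA intensities of 17727 and 22760 and a level of 2.96 ± 0.00 (SD, n = 2). ERG2, a sterol isomerase, was at 2.43 ± 0.04, and ERG6, the sterol methyltransferase that gives ergosterol its extra side-chain carbon, was at 2.42 ± 0.07. Their arrays overlapped, so their order is not resolved. ERG4, the reductase of the final step, was at 2.27 ± 0.08. ERG5, a second cytochrome P450, was the lowest at 2.04 ± 0.12, with RNA intensities of 3066 and 3993 beside DNA intensities of 2458 and 2953.

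The enzymes that use molecular oxygen, ERG1, ERG11, ERG25, ERG3 and ERG5, had a median of 2.76, against 1.92 for the other 10 genes from squalene onward. The difference was 0.88 on array 1 and 0.78 on array 2, with an SD of 0.07 over the 2 arrays, which does not cover the spread among genes. The RNA channel alone gave a difference of 2.03. This grouping, like those by complex and by step within the late genes, was made after the values were seen. The sizes thus depend on the channel used. The ranges overlapped, since ERG5 at 2.04 lay below NCP1, ERG6, ERG2 and ERG4.

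Esterification genes were lower than synthesis genes. ARE1, which encodes an acyl-CoA:sterol acyltransferase, had RNA intensities of 1972 and 2539 beside DNA intensities of 5672 and 6274, and a level of 0.28 ± 0.03 (SD, n = 2), not called. ARE2, the related enzyme that makes most of the ergosteryl ester in aerobic cells, had RNA intensities of 285 and 413 beside DNA intensities of 2500 and 2823. Its level was -1.34 on array 1 and -1.08 on array 2, 2.31-fold below the median gene, and it was called below with an adjusted p of 0.00119 in limma.

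The difference ARE2 minus ARE1 was -1.60 on array 1 and -1.37 on array 2, so ARE2 was 2.80-fold lower. In the RNA channel alone it was 6.52-fold lower. The DNA signal of ARE2 was at percentile 13.9 of all genes and that of ARE1 at 73.7. On array 1 the spots of ARE2 ran from -1.51 to -0.82, and on array 2 from -1.15 to -1.05.

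Both regulator genes lay at the median gene. UPC2 had RNA intensities of 977 and 1344 beside DNA intensities of 3588 and 4188, with levels of 0.13 on array 1 and 0.0027 on array 2. ECM22 had RNA intensities of 1333 and 1691 beside DNA intensities of 4532 and 5203, with levels of 0.03 and -0.0042. They were the only sterol genes with an adjusted p over 0.05 in limma, 0.272 for UPC2 and 0.759 for ECM22. The sign of UPC2 and ECM22 relative to the median gene was not stable under the alternatives.

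The oxysterol-binding homologues ran from the lowest sterol gene, HES1, to OSH7 at 1.98. KES1, which exchanges sterol for a phosphoinositide between membranes, had RNA intensities of 5727 and 6637 and was called above at 1.60 ± 0.00 (SD, n = 2). HES1, its closest relative, had RNA intensities of 121 and 153 beside DNA intensities of 3821 and 3750. HES1 was called below at -3.14 ± 0.10, 8.80-fold under the median gene, with an adjusted p of 7.54e-05 in limma. The highest spot of HES1 on either array was at -2.77, and the mean of no other sterol gene was lower than -1.21.

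The long homologues SWH1, OSH2 and OSH3, which carry further membrane-binding domains, were above the median gene but not called. SWH1 had RNA intensities of 1176 and 1564 and a level of 0.33 ± 0.04 (SD, n = 2). OSH2 was at 0.58 ± 0.03 and OSH3 at 0.87 ± 0.04. The levels of these 3 genes did not overlap across the arrays.

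OSH6 and OSH7 encode closely related proteins that exchange phosphatidylserine, and their RNA intensities were almost the same. OSH6 had 2057 and 2625, and OSH7 had 1990 and 2556. Their DNA intensities differed, with 6674 and 6977 for OSH6 but 1756 and 1932 for OSH7. The level of OSH7 was therefore 1.98 ± 0.09 (SD, n = 2), called above, and that of OSH6 0.14 ± 0.06, not called. From RNA alone OSH7 was at 0.84 and not called, and OSH6 minus OSH7 went from -1.84 to 0.043.

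Differences within the 6 pairs of related genes were compared on each array. KES1 exceeded HES1 by 4.82 on array 1 and 4.67 on array 2, or 26.8-fold, and 45.3-fold with the RNA channel alone. HMG1 exceeded HMG2 by 0.29 and 0.22, or 1.19-fold, beside a spread between arrays of 0.05, which does not cover the spread among spots. Their spots overlapped on both arrays, and on array 1 ran from 0.64 to 1.31 for HMG1 and from 0.50 to 0.88 for HMG2. SWH1 minus OSH2 was -0.25 and -0.24, so OSH2 was 1.19-fold higher. ECM22 minus UPC2 was -0.11 and -0.01, and the mean of -0.06 is smaller in size than the spread between arrays of 0.07 (SD, n = 2). By RNA alone ECM22 exceeded UPC2 by 0.45 and 0.33, with an SD of 0.08.

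By the ratio, the exact two-sided permutation test over arrays gave p = 0.667 for ECM22 and UPC2 and p = 0.333, the smallest possible, for each of the other 5 pairs. It can pass no threshold with 2 arrays, so these differences are given as sizes with their spread. Signal at the probes of similar genes may be shared, and this was not tested.

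**Figure D2:**
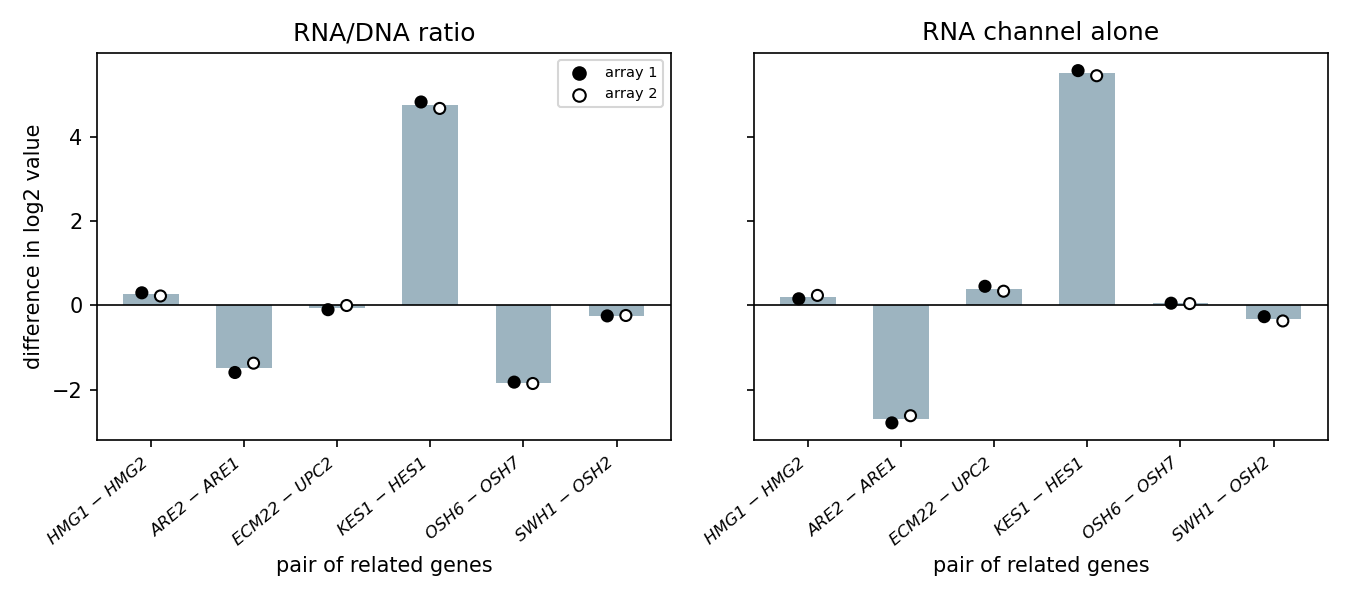
Difference in log2 value between the first and second gene of 6 related pairs, with RNA/DNA on the left and the RNA channel alone on the right. Bars are means of 2 arrays, and points are array 1 (filled) and array 2 (open). KES1 minus HES1 is above 4 in both panels, while OSH6 minus OSH7 is -1.84 on the left and 0.043 on the right.

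The DNA channel differed among sterol genes and moved with their RNA. On array 1 the lowest DNA intensity was 1756 (OSH7) and the highest 10376 (ERG25), and on array 2 these genes were again the extremes, at 1932 and 12096. Over both arrays the span was 6.08-fold. Across the 35 genes, Pearson's r between log2 DNA and log2 RNA signal, each a mean over arrays, was 0.68, against r = 0.38 across all genes. This is a description, since genes share the arrays and are not replicates. The part that probes, gene copies and labelling play in it was not tested.

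By construction, genes with a high DNA signal were higher by RNA alone than by the ratio, which subtracts their log2 DNA signal. By RNA alone, ERG25 was at 4.19 instead of 2.76, ERG10 at 3.64 instead of 2.35, and ERG6 at 3.72 instead of 2.42. ERG9, with a low DNA signal, was at 1.29 by RNA alone instead of 1.95. By RNA alone, 23 of the 35 were again called above, where 28.9% of all genes were. The call was the same in 33 of the 35, and the exceptions were HMG1, which was called above at 1.05, and OSH7.

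**Figure D3:**
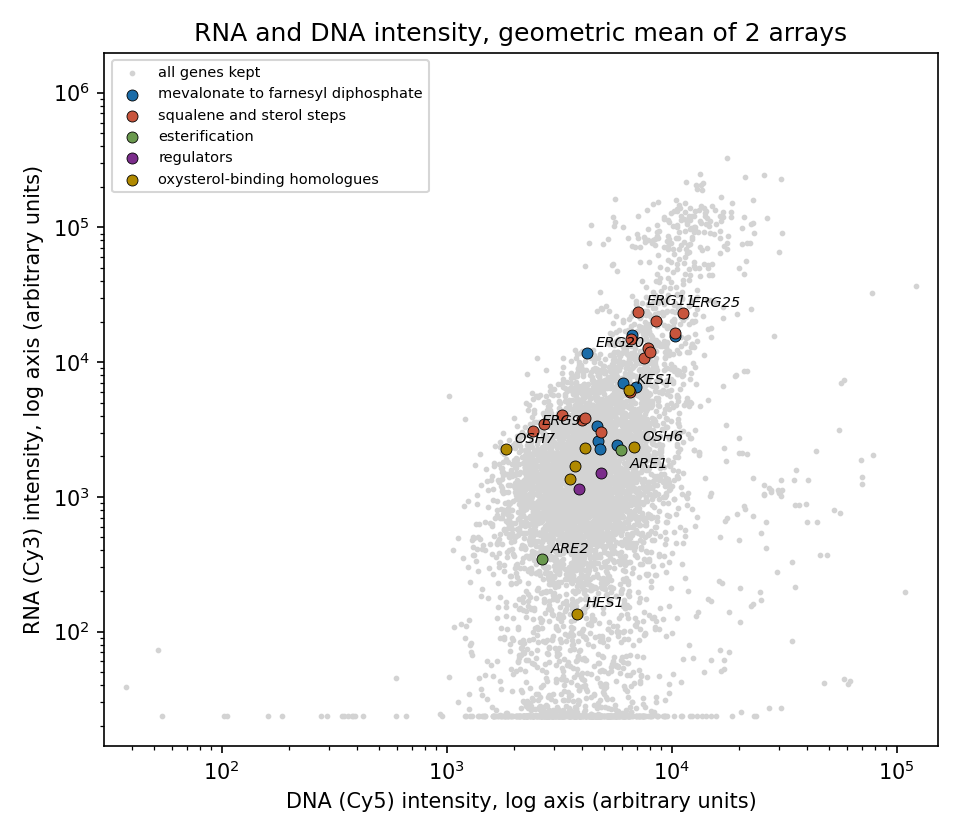
RNA intensity against DNA intensity, both on log axes and as the geometric mean of 2 arrays, for all 6250 genes (grey, RNA raised to the floor where it lay under it) and the 35 sterol genes by step. OSH6 and OSH7 lie at the same height but far apart on the DNA axis, and ERG11 and ERG25 are among the highest sterol genes.

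The arrays repeated each other closely for most sterol genes. The level differed between arrays by less than 0.2 for 33 of the 35, the exceptions being ERG20 and ARE2. The median absolute difference was 0.06 for the sterol genes and 0.05 for all genes with RNA above the floor. Among the spots of a sterol gene the SD had a median of 0.17 on array 1 and 0.10 on array 2. For all genes that median was 0.20 and 0.12. When the 35 genes were put in order, 14 of the 34 steps between neighbours overlapped across the arrays. Among these were NCP1 with ERG13, ERG24 with ERG7, ERG7 with KES1, and OSH3 with HMG1, whose order is thus not resolved.

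**Figure D4:**
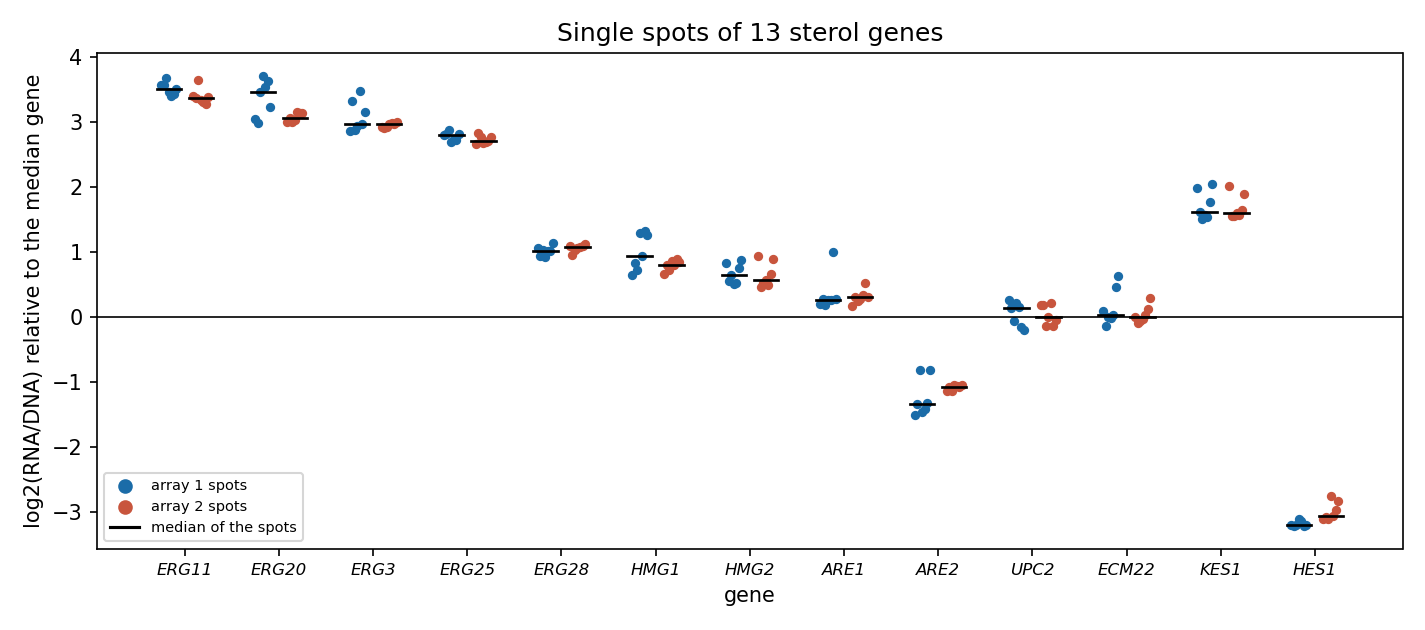
Levels of single spots, as log2(RNA/DNA) relative to the median gene, for 13 sterol genes on array 1 (blue) and array 2 (red), with the median of the 7 spots as a bar. Spots of most of these genes, ERG20 and ARE2 among them, scatter more on array 1 than on array 2, and the highest spot of HES1 on either array is at -2.77.

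A wider list held 48 other sterol-related genes. Of these, 13 were called above, or 27.1%, beside 28.2% of all genes, and 8 were called below, beside 31.2% of all genes. Their median level was 0.32. The list was chosen by known function, with earlier results of these data known.

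Electron donors and helpers of the sterol enzymes were the highest class by median level, at 1.42, with 3 of 4 above, beside 28.2% of all genes. CYB5, cytochrome b5, which feeds electrons to the sterol desaturation and oxidation steps, had RNA intensities of 4581 and 6238 and a level of 2.87 ± 0.03 (SD, n = 2). CBR1, its reductase, was at 1.84 ± 0.00. The DNA signal of CYB5 was at percentile 10.1, and by RNA alone CYB5 was at 2.09, below CBR1 at 2.95. DAP1, a heme-binding protein that stabilises ERG11, was at 1.00 ± 0.02, at the threshold itself, and lost its call under 5 alternatives. ERG29, a further endoplasmic reticulum protein of the pathway, was at -0.16 ± 0.04 and not called.

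Genes grouped under the turnover and stability of HMG-CoA reductase or ERG1 were mixed. Of these 7, 3 were above and 1 below, beside 28.2% and 31.2% of all genes. SSM4, a ubiquitin ligase listed here for its action on ERG1, was highest at 2.12 ± 0.01 (SD, n = 2). HRD3, a partner of the ubiquitin ligase HRD1, was lowest and called below at -1.28 ± 0.06, but was at -0.20 and not called with the RNA channel alone. HRD1 was at 0.70 ± 0.07.

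Genes of sterol import were low. PDR11 and AUS1, the transporters that take up sterol when oxygen is lacking, were called below, PDR11 at -1.48 ± 0.04 and AUS1 at -1.09 ± 0.01 (SD, n = 2). PDR11 had RNA intensities of 255 and 314, and AUS1 570 and 713. AUS1 was at -0.98 and not called with the RNA channel alone. In the same class of 6, PRY2, a secreted sterol-binding protein, was highest and called above at 1.01 ± 0.02, or at 0.82 and not called without genes at the RNA floor.

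Of 8 other carriers of sterol between membranes, 1 was above and 2 below, beside 28.2% and 31.2% of all genes. NPC2, the yeast relative of a lysosomal sterol-binding protein of animals, was at 1.98 ± 0.03 (SD, n = 2), while LAM5, a membrane-contact protein, was at -1.43 ± 0.02. LAM4, also called below at -1.14, was at -0.13 and not called with the RNA channel alone. Among the ester hydrolases, YEH2 was called above at 1.13 ± 0.01, and YEH1 at 0.25 ± 0.00 and TGL1 at -0.12 ± 0.05 were not called. YEH2 was at 0.75 and not called with the RNA channel alone. Sterol acetylation is set by ATF2, the acetyltransferase, at -0.22 ± 0.01, and SAY1, the deacetylase, which was called below at -1.50 ± 0.03.

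Of 6 other regulators 2 were above, or 33.3%, near the 28.2% of all genes. MOT3, a repressor that acts on sterol genes, was at 1.31 ± 0.03 (SD, n = 2), and at 0.98 and not called with the RNA channel alone. TUP1, at 0.72 and not called by the ratio, was at 2.13 and called above with the RNA channel alone. HAP1 was at 1.16 ± 0.06 although its gene is interrupted in this strain background. A signal at the probe shows RNA there, not a working protein. HAP1 was at 0.96 and not called without genes at the RNA floor. ROX1, the repressor of hypoxic genes, was the lowest at -0.26 ± 0.02.

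Enzymes that draw on prenyl diphosphates for other products were spread around the median gene. Of these 12, 2 were above and 2 below, beside 28.2% and 31.2% of all genes. By RNA alone 0 of the 12 were above, beside 28.9% of all genes. RAM1, called below at -1.12 by the ratio, was at -0.57 and not called with the RNA channel alone. NUS1, a subunit of the dehydrodolichyl diphosphate synthase, was highest at 2.24 ± 0.02 (SD, n = 2), but its DNA signal was at percentile 1.79, and it was at 0.93 and not called with the RNA channel alone. SRT1, an alternative long-chain prenyltransferase, was lowest at -3.48 ± 0.12, with RNA intensities of 85.2 and 99.2.

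**Figure D5:**
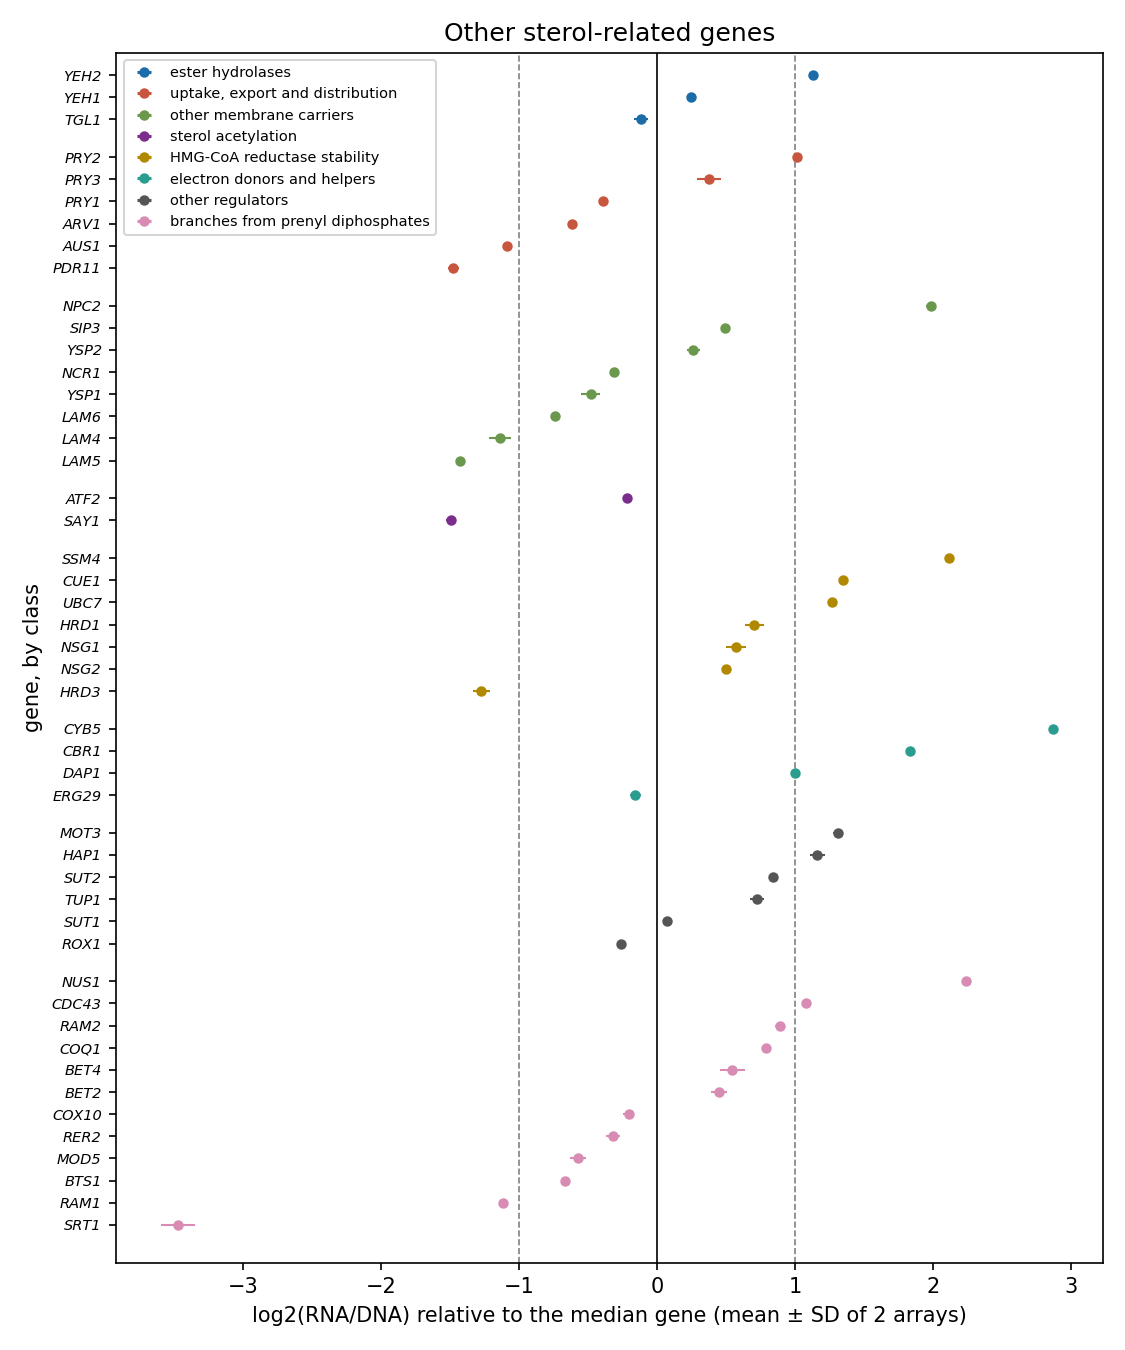
Level of 48 other sterol-related genes by class, as log2(RNA/DNA) relative to the median gene. Points are means and bars the SD of 2 arrays, and dashed lines mark 1 and -1. By this ratio CYB5 is highest at 2.87 and SRT1 lowest at -3.48, and 27 of the 48 were not called. By RNA alone CBR1, at 2.95, was above CYB5, at 2.09.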

How the data were processed

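The submitters' processing notes name Agilent Feature Extraction 10.5.1.1 for the 2 arrays. The deposited intensity values have had a fitted spatial background taken off, so some are negative, per the file headers. The alternative signal is that intensity divided by the deposited ratio of a fitted surface of gradients, per the file headers. No dye normalization is recorded there, and the dyes were not swapped. Spots that the authors' software marked as saturated, non-uniform or weak in DNA on either array were left out, which kept 43721 of 43792 gene spots and 6250 of 6256 genes; 34 of the sterol genes kept all 7 spots and MVD1 kept 6. A floor of 3 SD of the 153 negative control spots replaced lower RNA intensities. Levels are medians over spots.

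The test against the median gene used an intercept-only fit in limma (version 3.58.1, R version 4.3.3), with Benjamini-Hochberg adjustment over all genes. The fit was also run on simulated data in which most genes sat at the median gene. These data differ in that, so the run does not bear on the calls. Other values came from Python 3.11.15 with numpy 2.4.6, pandas 2.3.3, scipy 1.17.1 and matplotlib 3.10.9. Names of 15 further genes were taken from RefSeq assembly R64, and all 35 sterol genes matched it. Members, lists and tests were chosen with earlier results of these data known. All 35 sterol genes are accounted for, and of each class of other genes the highest and lowest were named, with all of classes up to 4 genes. HRD1, AUS1, HAP1, TUP1, LAM4, RAM1 and CDC43 were added after their values were seen. Alternatives changed the signal, background floor, spot summary and filter, reference channel, normalization, trend, thresholds and arrays. No probe, promoter or protein sequence was used here, and promoter motifs were not analysed. The number of arrays limits the precision.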

Additional observations from a re-analysis of the deposited data

How the results depend on the processing

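Of 280 levels of the 35 sterol genes under the 8 alternatives that allow a test, 271 kept their direction and call. Using RNA alone, HMG1 gained a call and OSH7 lost one; leaving out genes at the RNA floor, ERG8 and ERG28 lost theirs. UPC2 was at -0.025 by gradient-corrected intensity, -0.13 by RNA alone and -0.13 when genes at the floor were left out, where ECM22 was at -0.18 and OSH6 at -0.054. ECM22 minus UPC2 changed sign to 0.058 by gradient-corrected intensity, 0.049 by the mean over spots and 0.39 by RNA alone, and OSH6 minus OSH7 to 0.043 by RNA alone. The cause was not tested. With a log2 threshold of 2, 12 sterol genes were above: 3 mevalonate genes, 9 from squalene onward and 0 oxysterol-binding homologues, beside 12.4% of all genes. Of the homologues, 6 were above by adjusted p only, beside 47.1% of all genes, and 1 by RNA alone, beside 28.9%. Of the 48 other genes, 3 were above with a log2 threshold of 2, 26 by adjusted p only and 8 when genes at the floor were left out, where 27.1% of the remaining genes were. By RNA alone 11 of the 48 were above, beside 28.9% of all genes. Among these, TUP1 at 2.13, NSG1 at 1.89 and PRY3 at 1.44 gained a call that they lacked by the ratio. LAM4 at -0.13, RAM1 at -0.57 and CDC43 at 0.66 lost the call that they had by the ratio. YEH2, AUS1, HRD3, DAP1, MOT3 and NUS1 lost theirs too. With the RNA channel alone, YEH1 was at -0.38, TGL1 at 0.60, PRY1 at 0.25, ATF2 at 0.31, ERG29 at 0.32, ROX1 at 0.70, SUT1 at -0.34, COQ1 at -0.15 and RER2 at 0.26, each on the other side of the median gene, and SUT1 was at -0.13 without genes at the floor. With either array alone, which allows no test, the counts of sterol genes above were the same. The count of the other genes was 13 on array 1 alone and 11 on array 2 alone. ECM22 was at -0.0042 on array 2 alone. No paired analysis was possible because there is 1 group, whose arrays have no partners in another. Differences between genes were taken within each array, but the exact permutation test did not use the array as a block.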

Other observations

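The protein-coding genes next to each sterol gene in the order of the RefSeq table, where measured, were read for context. Of 65 such neighbours outside the 35 sterol genes, 26 were called above, or 40%, beside 28.2% of all genes, and 9 below, beside 31.2%. Their median level was 0.50, and ATF2 of the wider list was among them. Of the 24 synthesis genes, 18 were higher than each measured neighbour. Most synthesis genes were called above, so this count largely follows from their levels. No like count was made for other genes, and ERG1 and ERG11 did not have a measured neighbour on both sides. ERG24 at 1.61 lies between PRM1, a mating membrane protein, at -4.56 and HCH1, a heat shock regulator, at 3.39. HMG2 at 0.60 and FPR4, a proline isomerase, at 2.77 are adjacent. These values were chosen after they were seen.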
